A study of Sus scrofa with 3 samples.

Results

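Pig (Sus scrofa) cells labelled as mesenchymal stem cells derived from bone marrow (BM-MSC) were set against mononuclear cells of peripheral blood (PBMC), with 1 library of each. They are 2 of the 3 libraries of the study, whose stated purpose was to compare expression profiles among blood mononuclear cells, BM-MSC and attached bone marrow cells. The labels give no breed, age, animal, isolation step, passage or treatment for either population. Of 26466 gene symbols counted, the 11428 that reached 10 counts per 1000000 (CPM) in at least 1 library of the pair make up the comparison, and they are described below by family and function.

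Mesenchymal stromal cells are adherent, spindle-shaped cells that give rise to bone, cartilage and fat cells and that build and remodel the matrix around them. They hold the matrix through integrins, pull on it with actin stress fibres, and answer to growth factors of the PDGF, FGF, TGF-beta and WNT families. Blood mononuclear cells are lymphocytes and monocytes. They float in blood, recognise antigen through clonal receptors, and run on a set of signalling and cytoskeletal proteins made mainly in the blood lineages.

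RNA was read with QuantSeq, which makes 1 fragment near the 3′ end of each polyadenylated transcript. Total counts were 17069344 in BM-MSC and 15445903 in PBMC, so that 10 CPM stands for 171 and 154 counts and 3 counts for 0.176 and 0.194 CPM. The 2 rows that RefSeq lists as ribosomal RNA took 3.79% of the counts in BM-MSC and 1.28% in PBMC, and mitochondrially encoded genes took 3.36% and 4.92%. Outside these classes, the 10 genes with the most counts held 18.95% of the remaining counts in BM-MSC and 8.71% in PBMC. Unnamed rows were the highest of them in both libraries, at up to 40840 CPM in BM-MSC and 21338 CPM in PBMC. LOC110258600, at 37837 CPM in BM-MSC and 12983 CPM in PBMC, overlaps RN18S, a ribosomal RNA row at 37800 and 12732 CPM. LOC102158401 and LOC110258214 stood close by, at 40840 and 37982 CPM in BM-MSC and 14203 and 12925 CPM in PBMC. If these rows hold ribosomal reads, the ribosomal share is larger than the 2 listed rows show, which was not tested. Levels below are given as the BM-MSC value against the PBMC value unless the order is stated, and a gene is compared only with itself across libraries. Folds are ratios of CPM with a 95% interval for counting error alone. With 1 library a side there is no replicate check, no test was run, and nothing here separates the cell type from the animal, the culture or the library.

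Both labels were checked against defining markers. All 9 mesenchymal markers reached the floor in BM-MSC, among them PRRX1 (overlapping LOC106510093) at 231 against 1.75 CPM and PDGFRB, a receptor of platelet-derived growth factor, at 152 against 0.518 CPM. No T cell, B cell, natural killer, granulocyte or erythroid marker did so in BM-MSC: CD3E stood at 0.469 CPM, MS4A1 at 0.0586 CPM and NKG7 at 0 counts there. Of the monocyte markers only CST3 did, at 252 against 90.5 CPM, a secreted protease inhibitor that many cell types make, while CSF1R had 0 counts. The platelet marker GP9, at 45.7 against 18.2 CPM, and the endothelial marker PECAM1, at 15.2 against 145 CPM, also reached the floor in BM-MSC. In PBMC the T cell, B cell and natural killer markers stood at up to 203 CPM (CD3E), 869 CPM (BANK1) and 103 CPM (TBX21). Of the 5 markers each of bone, fat and cartilage cells, 2 reached the floor in BM-MSC: the bone factor RUNX2 (overlapping SUPT3H) at 78.6 against 261 CPM and the cartilage factor SOX9 at 13.4 against 0 CPM. Under the floor but above their PBMC values were ACAN (overlapping HAPLN3), aggrecan, at 9.14 against 2.4 CPM, COMP at 5.27 against 0 CPM, LPL, lipoprotein lipase, at 9.84 against 1.1 CPM and FABP4 at 5.39 against 0.0647 CPM. So was ALPL, at 1.05 against 0.583 CPM. BGLAP (osteocalcin), ADIPOQ (adiponectin) and COL2A1 (type II collagen, overlapping LOC110260776) stood at 0.0586, 0.293 and 0.117 CPM in BM-MSC. Their PBMC values were higher, at 0.324, 0.324 and 0.583 CPM. Also under the floor and lower in BM-MSC were SP7 (1.46 against 4.08 CPM), CEBPA (2.81 against 7.38 CPM) and PLIN1 (0.117 against 1.55 CPM). The same held for IBSP (0.0586 against 0.194 CPM) and MATN3 (0.644 against 0.647 CPM). Smooth muscle markers were mixed: CNN1, calponin, stood at 167 against 1.17 CPM and MYH11, smooth muscle myosin, at 23.2 against 5.83 CPM, with DES, desmin, at 0.0586 CPM. Of the other markers of pericytes and smooth muscle, MCAM was higher in PBMC at 60 against 175 CPM. RGS5 was under the floor at 0.762 against 0.583 CPM. In a mixed population such as PBMC, fewer cells of a type and less RNA per cell cannot be told apart.

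A gene was counted as higher in one population when its log2 ratio, taken after adding 1 CPM to both values, was at least 2 in size, a 4-fold difference. By this rule 1630 genes (14.3%) fell on the BM-MSC side and 1794 (15.7%) on the PBMC side, and 41.9% of genes lay within 2-fold. The log2 ratio of BM-MSC over PBMC had a median of -0.16 and quartiles of -1.36 and 1.09. A ratio of 64-fold or more was found for 157 genes on the BM-MSC side and 160 on the PBMC side. Among called genes, 80 on the BM-MSC side had 0 counts in PBMC and 95 on the PBMC side had 0 counts in BM-MSC. Many genes are in the comparison only through the library where they are high: 2113 reached the floor in BM-MSC alone and 2053 in PBMC alone. Over the 7262 genes at the floor in both, 355 (4.89%) passed the rule on the BM-MSC side and 608 (8.37%) on the PBMC side, and the counts of called members below are read beside these shares. TMM scaling, which trims the extreme genes before it sets the totals, moved the median of all genes to 0.22 and gave 1958 genes higher in BM-MSC and 1391 in PBMC, so that 58.5% of calls lay on the BM-MSC side against 47.6% without it. Of the genes named below as past the rule, COX2, EBF1, MALT1, MAML3 and SMAD2 dropped under it with TMM factors, while ALDH18A1, MYH11 and PSMB5 came past it. PRF1 fell under the floor of 10 CPM with TMM factors, so that its call ended too.

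**Figure D1:**
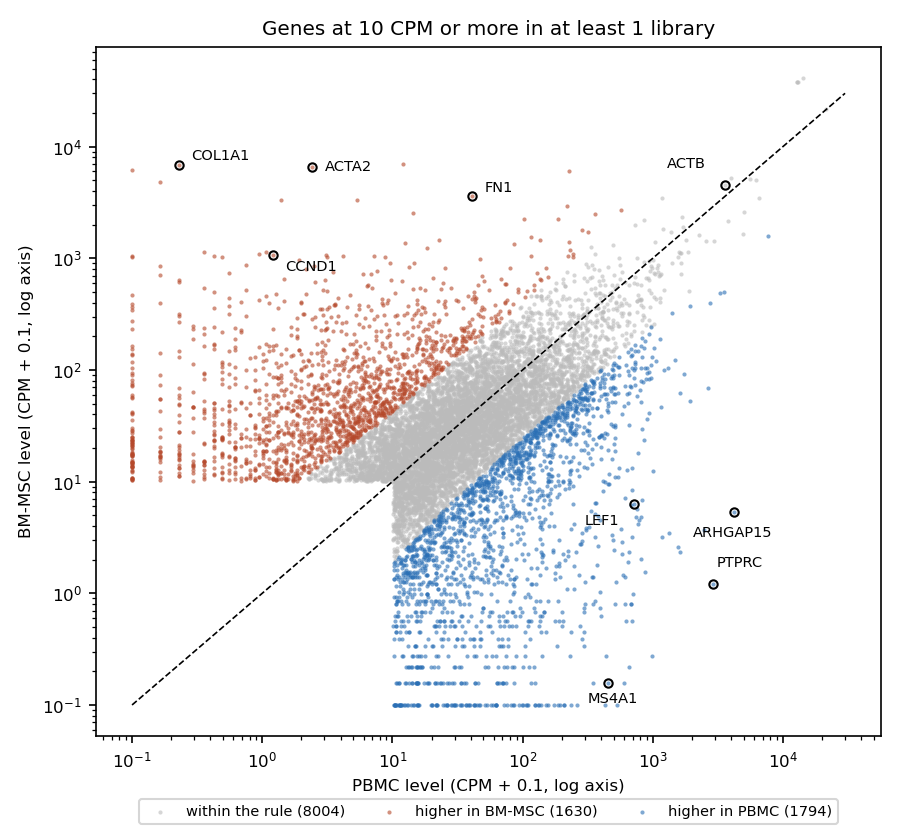
Level of each of the 11428 genes at the floor in PBMC (horizontal axis) and BM-MSC (vertical axis), as CPM + 0.1 on log scales. Each point is 1 gene, coloured by whether it passed the 4-fold rule, and the dashed line marks equal levels. The 1630 genes higher in BM-MSC and the 1794 higher in PBMC form separate wings, with COL1A1 far out on the first and PTPRC on the second.

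Matrix genes lay on the BM-MSC side, from the collagen chains to the enzymes that fold, cut and crosslink them. Of 23 collagen chains at the floor, 19 passed the rule on the BM-MSC side and 0 on the PBMC side, with a median log2 ratio of 5.49; 19 of the 23 reached the floor through BM-MSC alone. A gene at the floor through a single library had to be higher there, though not by 4-fold. Such counts therefore describe the genes and support nothing further. COL3A1, the chain of type III collagen, stood at 858 against 0.0647 CPM, a ratio of 13245-fold (2377 to 523180). COL5A2, which sets fibril width with type I collagen, had a level in PBMC too, at 815 against 25.3 CPM, and was 32.2-fold (29.1 to 35.7) higher in BM-MSC. COL8A1, a short-chain collagen, stood at 1073 against 2.98 CPM and COL12A1, which coats fibrils, at 122 against 2.78 CPM. The network collagen of basement membranes, COL4A1 (overlapping COL4A2), stood at 293 against 1.75 CPM. The 4 chains that did not pass the rule included COL19A1, 2.23-fold (2.1 to 2.37) higher in PBMC at 97.4 against 217 CPM, and COL23A1, a transmembrane collagen at 4.92 against 18.5 CPM.

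The enzymes and chaperones that act on the collagen chain were higher with it: 20 of 27 in BM-MSC, 0 in PBMC, median 3.71. SERPINH1, the chaperone that holds the folded triple helix, stood at 616 against 0.129 CPM, or 4756-fold (1316 to 39274) higher. FKBP10, a prolyl isomerase that works on procollagen, stood at 94.3 against 0.259 CPM. Of the lysyl hydroxylases, PLOD1 was at 45.3 against 1.88 CPM and PLOD2 at 90.7 against 2.27 CPM. The prolyl hydroxylase P4HA3 was at 45.3 against 2.52 CPM, whereas P4HA1 (overlapping NUDT13) was 2.45-fold (2.24 to 2.67) higher, below the rule. BMP1, which cleaves the C-terminal propeptide, stood at 44.9 against 0.518 CPM, and its enhancer PCOLCE2 at 178 against 2.78 CPM. Of the crosslinking enzymes, LOXL1 stood at 70.8 against 0.453 CPM and LOXL2 at 386 against 3.5 CPM. TGM2, a transglutaminase, was the smallest difference of the list, at 12 against 5.63 CPM or 2.13-fold (1.65 to 2.77).

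**Figure D2:**
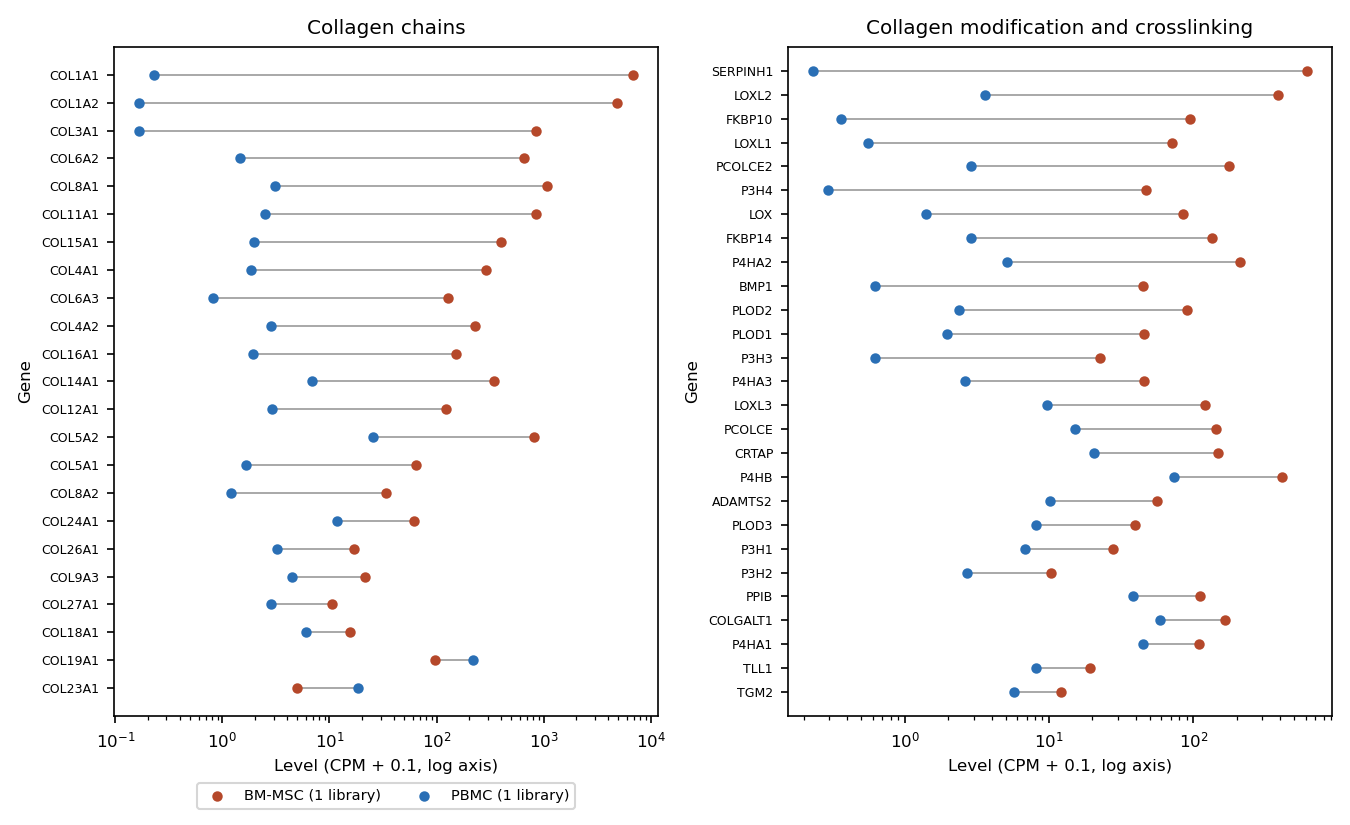
Levels of the collagen chains (left) and of the enzymes and chaperones that modify, process and crosslink collagen (right) that reached the floor, as CPM + 0.1 on a log axis. Each row is 1 gene with its BM-MSC and PBMC values joined by a line, ordered by ratio. Only COL19A1 and COL23A1 lie higher in PBMC, both within 4-fold after the added 1 CPM.

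The other matrix lists had the same direction. Elastic fibre and matrix glycoproteins had 31 of 39 members past the rule on the BM-MSC side and 0 on the PBMC side (median 4.89, or 5.76 with no pseudocount and 0 counts set to 3, called the bounded median below). FBN1, the microfibril protein fibrillin, stood at 753 against 3.37 CPM and ELN, elastin, at 130 against 0.777 CPM. FN1, fibronectin, was 88.2-fold (81.6 to 95.6) higher at 3622 against 41 CPM, and TNC, tenascin C, stood at 151 against 4.14 CPM. EMILIN2 went the other way without passing the rule, 2.59-fold (2.43 to 2.77) higher in PBMC at 75.8 against 196 CPM, while its relative EMILIN1 stood at 385 against 3.5 CPM. All 6 laminin chains at the floor reached it in BM-MSC alone, and LAMA5, LAMA4, LAMC1, LAMB1 and LAMA2 passed the rule, with LAMC1 at 309 against 5.11 CPM. Proteoglycans had 16 of 24 members past the rule on the BM-MSC side and 2 on the PBMC side (median 3.94, bounded median 5.15). PRELP and FMOD, which bind collagen fibrils, stood at 1098 against 0.842 CPM and 187 against 0.194 CPM. The exceptions were SRGN, the proteoglycan of leukocyte granules, 87.7-fold (73.2 to 106) higher in PBMC at 7.03 against 616 CPM, and TMEM2, a cell surface hyaluronidase, 5.65-fold (5.23 to 6.11) higher there. VCAN, versican, was within the rule at 294 against 177 CPM.

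Matrix proteases and their inhibitors were higher in BM-MSC together, 24 of 37 against 0 in PBMC. MMP14, the membrane collagenase that activates MMP2, stood at 360 against 0.324 CPM, and MMP2 itself at 159 against 0.518 CPM. FAP, a serine protease of activated fibroblasts, stood at 45.4 against 0.324 CPM. Their inhibitors TIMP2 (812 against 79.6 CPM) and RECK (66.1 against 4.53 CPM) were higher on the same side by 10.2-fold (9.63 to 10.8) and 14.6-fold (11.4 to 18.8). SERPINE2, protease nexin, stood at 974 against 1.81 CPM. ADAM10, a shedding protease of the cell surface, was close to equal at 263 against 343 CPM. MMP25, a membrane protease known from leukocytes, was 4.32-fold (3.28 to 5.76) higher in PBMC at 3.81 against 16.4 CPM, just inside the 4-fold line once 1 CPM was added.

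Integrins, the receptors that tie cells to matrix or to other cells, were divided between the populations. Of 22 subunits at the floor, 7 passed the rule on the BM-MSC side and 10 on the PBMC side, with a median of -1.44; 12 reached the floor through PBMC alone and 5 through BM-MSC alone. Over the 5 at the floor in both, 2 passed on the BM-MSC side and 0 on that of PBMC, and the median was 1.34. On the BM-MSC side were ITGA8 (609 against 2.46 CPM), which pairs with ITGB1 to bind fibronectin and nephronectin, ITGA11 (42.4 against 2.72 CPM), a collagen receptor, ITGAV (156 against 27.3 CPM), its partners ITGB3 (22.7 against 3.5 CPM) and ITGB8 (80 against 3.37 CPM), and ITGB1 (1029 against 245 CPM). ITGA8 had the largest of these ratios, 248-fold (180 to 350). On the PBMC side, ITGA4 stood at 0.469 against 687 CPM and its partner ITGB7, which steers lymphocytes to the gut, at 1.17 against 302 CPM. ITGAL, ITGAX and ITGB2, subunits of the leukocyte integrins, stood at 7.56 against 137 CPM, 0.0586 against 42.8 CPM and 5.8 against 142 CPM. ITGA5, the classical fibronectin receptor, was 2.58-fold (2.33 to 2.86) higher in BM-MSC and ITGA1 2.01-fold (1.87 to 2.15), both below the rule, and ITGB5 was close to equal at 83.4 against 88 CPM.

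The proteins that link integrins to actin were more often higher in BM-MSC, for 22 of 45 list members, against 7 in PBMC. Over the 26 members at the floor in both libraries the counts were 9 and 2. TGFB1I1 (Hic-5) and LIMS2, LIM-domain adaptors of focal adhesions, stood at 220 against 0.388 CPM and 159 against 0.842 CPM. FLNA, filamin A, was 6.31-fold (6.12 to 6.52) higher at 1794 against 284 CPM, and ACTN1 and ACTN4, the non-muscle alpha-actinins, were 4.7-fold (4.46 to 4.96) and 7.92-fold (7.45 to 8.42) higher. TLN1, talin, stood at 431 against 200 CPM, PXN, paxillin, at 49 against 30.8 CPM, PTK2, focal adhesion kinase, at 57.4 against 59.1 CPM and ZYX, zyxin, at 186 against 136 CPM, all within the rule. PTK2B, the kinase most like PTK2, was 6.06-fold (5.6 to 6.57) higher in PBMC. Cell-cell adhesion genes were mixed. Cadherins were higher in BM-MSC for 10 of 25, with CDH11, the mesenchymal cadherin, at 205 against 1.55 CPM, and in PBMC for 4. Immunoglobulin-type adhesion molecules were higher in PBMC for 11 of 29, with CD48 at 0 against 209 CPM and SLAMF6 at 0.469 against 116 CPM, both of the SLAM family of lymphocyte receptors, and in BM-MSC for 6, with NECTIN3 at 381 against 3.43 CPM and NCAM1 at 119 against 6.02 CPM. Tetraspanins passed for 9 of 24 on the BM-MSC side and 5 on the PBMC side: CD151, which binds integrins, was 159-fold (112 to 234) higher in BM-MSC at 319 against 2.01 CPM, and CD53, made in leukocytes, was 463-fold (259 to 929) higher in PBMC at 0.644 against 299 CPM.

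The contractile apparatus was higher in BM-MSC for 20 of 36 genes and in PBMC for 2 (median 2.90). CALD1, caldesmon, stood at 6942 against 11.9 CPM and was 583-fold (504 to 677) higher. TPM1 and TPM2, tropomyosins of stress fibres, stood at 1380 against 12.3 CPM and 367 against 25.4 CPM, and LMOD1, which nucleates smooth muscle actin filaments, at 165 against 1.1 CPM. MYH9, non-muscle myosin IIA, was 1.99-fold (1.93 to 2.06) higher, below the rule, whereas MYH10, myosin IIB, was 5.58-fold (5.09 to 6.13) higher at 193 against 34.6 CPM. Of the genes of the caveolar coat, CAVIN1 stood at 403 against 0.583 CPM, CAV1 at 239 against 0.518 CPM and EHD2 at 210 against 0.259 CPM. Intermediate filament and nuclear lamina genes passed for 3 of 17 on the BM-MSC side and 5 on the PBMC side (median -1.13). LMNA, the A-type lamin, was 149-fold (124 to 182) higher in BM-MSC at 1052 against 7.06 CPM, and LMNB1 and LBR, the B-type lamin and its receptor, were higher in PBMC by 13.4-fold (10.1 to 18) and 15-fold (12.9 to 17.4). The intermediate filament gene VIM, vimentin, stood at 2943 against 218 CPM.

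Many cytoskeletal and signalling proteins have a form made mainly in blood cells and a relative of wider use, and 46 such pairs were laid side by side. In 18 pairs the members were higher on opposite sides, the blood form in PBMC and the relative in BM-MSC; the pairs were chosen because the first member is known from leukocytes, so that its side was largely given by the choice and is no finding, though CAPG and PIK3CD (overlapping CLSTN1) did not take it. LCP1, the actin bundler L-plastin, stood at 12.5 against 638 CPM and PLS3, T-plastin, at 151 against 2.85 CPM, ratios of 51.1-fold (44.6 to 58.8) and 53.1-fold (39.4 to 73.2) in opposite directions. HCLS1, which stabilises branched actin in blood cells, stood at 2.64 against 280 CPM, and its relative CTTN, cortactin, at 235 against 0.259 CPM. NCKAP1L and NCKAP1, alternative subunits of the WAVE complex, stood at 0.586 against 147 CPM and 122 against 9.65 CPM. EVL and ENAH, actin elongation factors, stood at 6.8 against 101 CPM and 839 against 13.3 CPM, and PARVG and PARVA, integrin-linked parvins, at 0.293 against 47 CPM and 221 against 3.37 CPM. The kindlins followed, with FERMT3 (overlapping TRPT1) at 12.3 against 89.2 CPM and FERMT2 at 480 against 2.07 CPM. Outside the cytoskeleton the same exchange was seen for the D-type cyclins, where CCND3 was 12.3-fold (11.7 to 12.9) higher in PBMC and CCND1 981-fold (613 to 1685) higher in BM-MSC, and for the cysteine cathepsins CTSS (20.2 against 401 CPM) and CTSK (911 against 14.6 CPM).

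In 21 of the 46 pairs only the blood form passed the rule. In 2 of these the relative was under the floor in both libraries and could not be judged: GNA11, which like GNA15 is an alpha subunit of the Gq class, at 8.55 against 0.712 CPM, and INPPL1, the relative of INPP5D, at 0.469 against 1.23 CPM. In the others it lay within 4-fold. CORO1A, coronin 1A, was 755-fold (397 to 1651) higher in PBMC, and CORO1C stood at 56.3 against 80.8 CPM. The small GTPase RAC2 was 1308-fold (447 to 6348) higher in PBMC while RAC1 was 2.13-fold (2.04 to 2.24) higher in BM-MSC, and the phosphatase PTPN6 (SHP-1) was 213-fold (116 to 445) higher in PBMC while PTPN11 (SHP-2) stood at 107 against 114 CPM. In 5 pairs both members were on one side. Of these, VAV1 and VAV3, exchange factors for Rac, were both higher in PBMC at 0.879 against 111 CPM and 4.45 against 391 CPM, and CAPG and GSN, which cap actin filaments, were both higher in BM-MSC at 327 against 78.9 CPM and 731 against 129 CPM. The pair PIK3CD (overlapping CLSTN1) and PIK3CA (overlapping LOC110256340) was within the rule on both sides, and 1 pair could not be compared because a member had no row. In 4 pairs of a widely used form and its smooth muscle relative, only the smooth muscle form passed the rule. ACTB stood at 4575 against 3585 CPM and ACTA2 at 6566 against 2.33 CPM, CNN2 at 76.6 against 55.3 CPM and CNN1 at 167 against 1.17 CPM. Of the other wide forms, TAGLN2 stood at 82.3 against 126 CPM. TPM3, the wide form beside TPM1, was higher in PBMC at 208 against 679 CPM, below the rule.

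**Figure D3:**
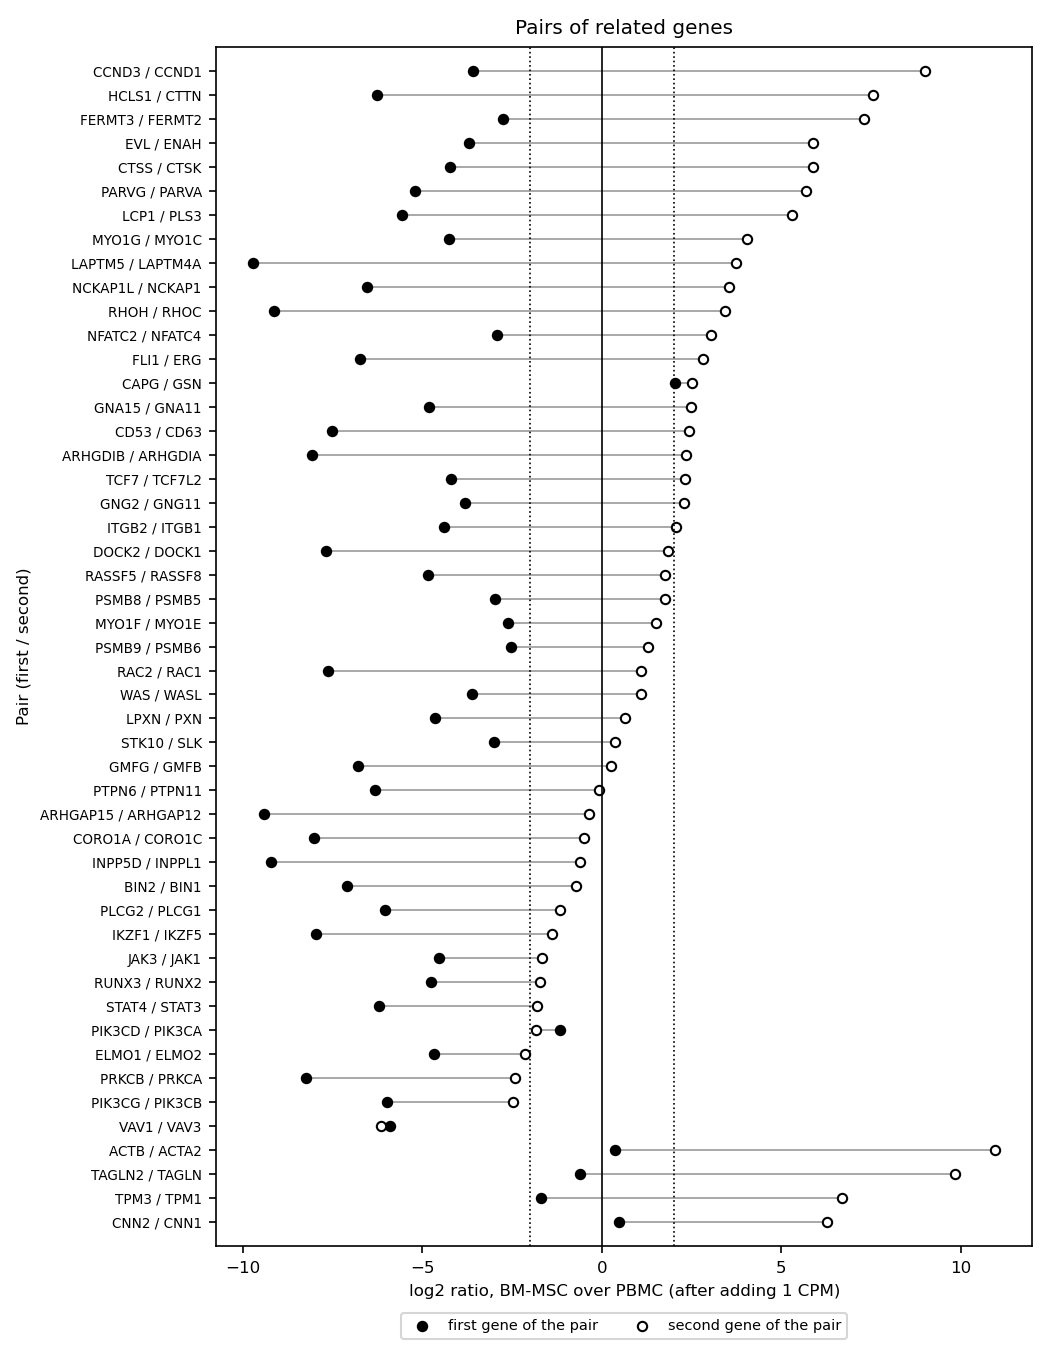
Log2 ratio of BM-MSC over PBMC for the members of 49 pairs of related genes, 1 pair a row. Filled points are the form made mainly in blood cells or, in the bottom 4 rows, the widely used form; open points are its relative; dotted lines mark the 4-fold rule. In 18 rows both points lie beyond the lines on opposite sides and pass the rule; GNA15 and GNA11 look alike, but GNA11 is under the floor.

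Receptor tyrosine kinases had 18 of 29 members past the rule on the BM-MSC side and 6 on the PBMC side (median 2.76, bounded median 2.98). DDR2, a receptor for fibrillar collagen, stood at 307 against 3.69 CPM, or 83.1-fold (64 to 110) higher. EGFR stood at 84.1 against 1.68 CPM, FGFR1 at 60.5 against 3.63 CPM and AXL, the receptor of GAS6, at 67.1 against 3.11 CPM. On the PBMC side were FLT3 (0.879 against 37.2 CPM) and KIT (1.05 against 18.3 CPM), receptors of blood progenitors, and EPHB6, a receptor without kinase activity, which stood at 0.703 against 348 CPM and was 495-fold (283 to 959) higher. Its relative EPHB3 was 171-fold (66.3 to 628) higher in BM-MSC. INSR, the insulin receptor, was close to equal at 17.3 against 25.3 CPM, whereas IGF1R was 6.05-fold (5.6 to 6.53) higher in BM-MSC.

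Ligands of these receptors followed the same side for 21 of 33 growth factor genes, against 3 in PBMC. VEGFC, the lymphatic vessel growth factor, stood at 162 against 1.04 CPM and VEGFA at 14.4 against 1.55 CPM. GAS6, the ligand of AXL, stood at 183 against 5.11 CPM, so that ligand and receptor were both higher in BM-MSC. PDGFA (31.9 against 2.59 CPM) and PDGFC (96.1 against 15 CPM), ligands of the PDGF receptors, were also higher there. The neurotrophic factors BDNF and GDNF stood at 24.8 against 0.388 CPM and 14.1 against 0.259 CPM. TGFA, a ligand of EGFR, was 26.2-fold (13.5 to 58) higher in PBMC. The secreted IGF-binding proteins IGFBP2, IGFBP5 and IGFBP6 stood at 1126 against 0.971 CPM, 316 against 0.129 CPM and 54.9 against 0.0647 CPM.

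In the TGF-beta and BMP pathway, 20 of 46 genes passed on the BM-MSC side and 4 on that of PBMC. Of the secreted antagonists and modulators, GREM1, a BMP antagonist, was at least 1420-fold higher in BM-MSC at 276 against 0 CPM, CHRDL1 stood at 285 against 2.33 CPM and NBL1 at 488 against 10.4 CPM. Of the target genes of BMP signalling, ID1 stood at 72.6 against 0.0647 CPM, ID3 at 898 against 9.45 CPM and SMAD6, an inhibitory SMAD, at 110 against 2.85 CPM. Of the ligands, TGFB2 stood at 127 against 6.99 CPM and was 18.2-fold (15 to 22.3) higher in BM-MSC, while TGFB1 was 33.4-fold (26.5 to 42.8) higher in PBMC at 4.28 against 143 CPM. Of the signal transducers, SMAD4 stood at 98.4 against 292 CPM, TGFBR1 at 22.6 against 58.9 CPM and BMPR2 at 100 against 102 CPM, and SMAD2 was 5.06-fold (4.78 to 5.37) higher in PBMC.

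WNT pathway genes had 20 of 48 members past the rule on the BM-MSC side and 5 on the PBMC side. Of the secreted inhibitors, SFRP1, SFRP2 and SFRP4 stood at 1033 against 3.04 CPM, 712 against 0.0647 CPM and 167 against 0.324 CPM, and DKK3 at 121 against 2.2 CPM. Of the receptors, FZD7 was at least 74.5-fold higher in BM-MSC, LRP6 stood at 200 against 25.3 CPM and the tyrosine kinase receptor ROR2 at 98.6 against 8.16 CPM. The nuclear partners of beta-catenin differed by family member. LEF1 and TCF7, the forms of lymphocytes, were higher in PBMC by 117-fold (96.5 to 143) and 21.7-fold (17.5 to 27.2), and TCF7L1 and TCF7L2 were higher in BM-MSC by 29.9-fold (21.5 to 42.6) and 5.1-fold (4.68 to 5.56). GSK3B and APC, of the destruction complex, were close to equal at 278 against 430 CPM and 87 against 134 CPM. In the Notch pathway 4 of 27 genes were higher in BM-MSC, among them the ligand JAG1 (70.1 against 2.46 CPM) and the target HEY2 (52.4 against 0.453 CPM), and 7 in PBMC, among them the glycosyltransferases LFNG (21.3 against 178 CPM) and MFNG (0 against 30.5 CPM) that tune Notch receptors, and the coactivators MAML1 and MAML3.

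Genes of the Hippo pathway, whose effectors YAP1 and WWTR1 (TAZ) drive transcription in spread, adherent cells, had 19 of 34 members past the rule on the BM-MSC side and 2 on the PBMC side (median 2.99, bounded median 3.38). Of the 34, 19 reached the floor through BM-MSC alone. Over the 13 at the floor in both libraries, 2 passed on the BM-MSC side and 1 on the PBMC side. The median of these 13 was 0.70. The effectors YAP1 and WWTR1 stood at 142 against 2.52 CPM and 125 against 4.79 CPM, ratios of 56.2-fold (41 to 79.2) and 26.1-fold (20.7 to 33.4). AMOTL2, a target and feedback regulator, was at least 2389-fold higher at 464 against 0 CPM. CTGF, a classical target, was at least 5441-fold higher, and CRIM1, a transmembrane target, stood at 989 against 46.6 CPM. Of the upstream kinases, LATS2 was 4.99-fold (4.56 to 5.47) higher in BM-MSC, LATS1 was close to equal at 26.2 against 31.5 CPM, and STK4, which acts above LATS1 and LATS2, was 15.2-fold (13.4 to 17.3) higher in PBMC. Guidance genes first known from axons were higher in BM-MSC for 18 of 36, such as SEMA3C (715 against 6.8 CPM), SLIT2 (248 against 6.47 CPM) and its receptor ROBO1 (245 against 15.5 CPM). In PBMC 4 were higher, among them SEMA4D (1.64 against 189 CPM) and SEMA4A (0.352 against 57.9 CPM), the semaphorins of lymphocytes.

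On the PBMC side, the antigen receptor machinery was read through from receptor to nucleus. Of 38 T cell receptor genes at the floor, 36 passed the rule on the PBMC side and 0 on the BM-MSC side, and 30 reached the floor through PBMC alone. The receptor chain CD3G stood at 0.469 against 76.2 CPM, the kinase LCK at 0.293 against 77.3 CPM, the adaptors LAT and LCP2 at 1.11 against 74.2 CPM and 0.352 against 297 CPM, and PRKCQ, the protein kinase C of the T cell synapse, at 0.762 against 361 CPM. The adaptor SKAP1 was 382-fold (292 to 511) higher at 3.1 against 1187 CPM. FYN and MALT1, which other cells use too, were 5.11-fold (4.88 to 5.35) and 4.72-fold (4.44 to 5.02) higher, at 132 against 675 CPM and 75.3 against 355 CPM. Of 28 B cell receptor genes 25 were higher in PBMC, with SYK at 3.63 against 567 CPM, PLCG2 at 3.4 against 288 CPM and PRKCB at 3.4 against 1343 CPM. All 14 immunoglobulin or T cell receptor constant-region rows and all 3 variable-segment rows at the floor were higher in PBMC; most have no gene name. Of the granule genes of cytotoxic cells, NKG7 stood at 0 against 51.3 CPM, GZMH at 0.0586 against 74.3 CPM and PRF1, perforin, at 0.82 against 10.1 CPM. Downstream, phosphoinositide and diacylglycerol signalling genes had 33 of 74 members past the rule on the PBMC side and 6 on the BM-MSC side; at the floor in both, 14 of 43 and 2. INPP5D, the SHIP1 phosphatase, was 5640-fold (1561 to 46581) higher in PBMC, and PLCB1 was 13.2-fold (12 to 14.5) higher in BM-MSC at 416 against 31.6 CPM.

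Of the antigen presentation genes, class II genes were higher in PBMC for 11 of 14, with the invariant chain CD74 at 0.469 against 191 CPM and SLA-DRB1 at 0.469 against 622 CPM. CIITA, their master regulator, was 5.81-fold (5.28 to 6.41) higher in PBMC but stood at 29.4 CPM in BM-MSC. The interferon-inducible thiol reductase IFI30 was 2.81-fold (2.61 to 3.03) higher in BM-MSC, below the rule. Class I and immunoproteasome genes were higher in PBMC for 9 of 22. B2M, the light chain, stood at 429 against 1054 CPM, and NLRC5, the class I regulator, was 47.4-fold (41 to 55.2) higher in PBMC. Immunoproteasome subunits PSMB8 and PSMB9 were higher in PBMC by 8.6-fold (7.3 to 10.2) and 6.08-fold (5.4 to 6.87), and the standard subunits that they replace, PSMB5 and PSMB6, were higher in BM-MSC by 3.49-fold (3.07 to 3.99) and 2.51-fold (2.23 to 2.82), the latter pair below the rule. CALR, an ER chaperone with many other clients, was the 1 list member higher in BM-MSC by the rule, at 1053 against 221 CPM.

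Cytokine genes were divided between the sides, and receptor genes lay mostly on that of PBMC. Interleukins and other cytokines had 9 of 26 members past the rule on the BM-MSC side and 10 on the PBMC side. CSF1, the macrophage growth factor, stood at 123 against 2.14 CPM, and its receptor CSF1R at 0 against 44.7 CPM, so that ligand and receptor lay on opposite sides. IL6 and IL11 stood at 18.6 against 0.0647 CPM and 10.9 against 0.0647 CPM. The monocyte chemokine CCL2 was at least 794-fold higher in BM-MSC at 154 against 0 CPM, and the T cell chemokine CCL5 was 64.5-fold (46.6 to 91.8) higher in PBMC at 2.17 against 140 CPM. LTB, lymphotoxin beta, stood at 0.527 against 141 CPM, while its receptor LTBR stood at 58.1 against 7.51 CPM, 7.74-fold (6.38 to 9.46) higher in BM-MSC. Cytokine receptors and JAK-STAT genes had 26 of 50 members past the rule on the PBMC side and 1 on the BM-MSC side, which was IL11RA at 51.3 against 7.19 CPM. IL6R was 7.65-fold (6.98 to 8.4) higher in PBMC, where IL6 itself stood at 0.0647 CPM. STAT4 was 109-fold (78.4 to 157) higher in PBMC and STAT3 3.56-fold (3.24 to 3.91), the latter below the rule, and JAK1 stood at 225 against 718 CPM.

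Innate sensing and NF-kB genes had 26 of 61 members past the rule on the PBMC side and 4 on the BM-MSC side. REL, the lymphocyte NF-kB subunit, was 15.3-fold (13.5 to 17.5) higher in PBMC, NFKB1 5.35-fold (4.99 to 5.74) and TNFAIP3, the A20 feedback inhibitor, 102-fold (76.5 to 138), whereas NFKBIA, another feedback gene, was close to equal at 30.2 against 33.3 CPM. Interferon-stimulated genes were mostly within the rule. Of 39 at the floor, 8 (20.5%) passed the rule on the PBMC side, beside 15.7% of all genes, and 0 on the BM-MSC side. Over the 30 at the floor in both, 5 (16.7%) passed on the PBMC side, beside 8.37% of all such genes. MX1 stood at 147 against 86.7 CPM, OAS2 at 118 against 60.6 CPM and IFITM3 at 389 against 159 CPM, while MX2 and IFITM1 were higher in PBMC by 13.7-fold (10.8 to 17.6) and 14.6-fold (11.3 to 19.2). GIMAP and GBP GTPases, by contrast, were higher in PBMC for 8 of 8, with GIMAP1 at 0.176 against 436 CPM.

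Transcription factors of the mesenchyme had 30 of 50 members past the rule on the BM-MSC side and 3 on the PBMC side (median 2.88, bounded median 3.36), and 28 of them reached the floor in BM-MSC alone. PRRX2, a homeobox factor of limb and skin mesenchyme, stood at 306 against 0.647 CPM, SHOX2 at 148 against 0.129 CPM and TBX15, a T-box factor of the skeleton, at 120 against 1.94 CPM. TWIST1 and SNAI2, known from epithelial to mesenchymal transition, had 0 counts in PBMC and stood at 14.9 and 16.7 CPM in BM-MSC. Other factors on this list were not on this side: ZEB2 was 5.94-fold (5.72 to 6.17) higher in PBMC at 190 against 1130 CPM, EBF1 4.38-fold (4.22 to 4.54) at 212 against 928 CPM and RUNX2 (overlapping SUPT3H) 3.32-fold (3.12 to 3.53) at 78.6 against 261 CPM, the last below the rule. SOX4 was 8.23-fold (7.34 to 9.24) higher in BM-MSC at 177 against 21.5 CPM, and SOX5 2.77-fold (2.7 to 2.85) higher in PBMC at 408 against 1131 CPM, the latter below the rule. Over the 22 members at the floor in both libraries, 2 passed the rule on the BM-MSC side and 3 on the PBMC side. All 8 HOX genes at the floor reached it in BM-MSC alone and were higher there; HOXD8 and HOXB7 had 0 counts in PBMC and stood at 13.4 and 10.5 CPM.

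Transcription factors of blood cells had 40 of 66 members past the rule on the PBMC side and 4 on the BM-MSC side. IKZF1 (Ikaros) and IKZF3 (Aiolos) stood at 1.35 against 589 CPM and 1.82 against 650 CPM, BACH2 at 4.45 against 788 CPM, and the T cell factors BCL11B and SATB1 at 0.352 against 235 CPM and 0.586 against 295 CPM. B cell factors PAX5 and POU2F2 stood at 2.75 against 584 CPM and 0.644 against 390 CPM, and SPI1, the myeloid factor PU.1, at 1.29 against 41.3 CPM. The 4 that were higher in BM-MSC were ID3 (898 against 9.45 CPM), MECOM (256 against 5.44 CPM), GATA2 (23.4 against 0.388 CPM) and BCL6 (51 against 12 CPM). RUNX1 stood at 515 against 1225 CPM and FOXP1 at 510 against 1910 CPM, high in both and within the rule. Immediate-early and KLF genes passed for 12 of 62 (19.4%) in BM-MSC, beside 14.3% of all genes, and 8 (12.9%) in PBMC, beside 15.7%. Of the 35 that reached 10 CPM in both libraries, 0 passed on the BM-MSC side. On the PBMC side 4 of these 35 (11.4%) passed, beside 8.37% of all such genes. The median log2 ratio was 0.38 for the 62 and -0.12 for the 35. EGR1 and KLF4 were higher in BM-MSC by 12.7-fold (10.3 to 16) and 11.1-fold (8.41 to 14.9), JUN was 3.77-fold (3.5 to 4.05) higher in PBMC, below the rule, and JUND was equal at 114 against 114 CPM.

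**Figure D4:**
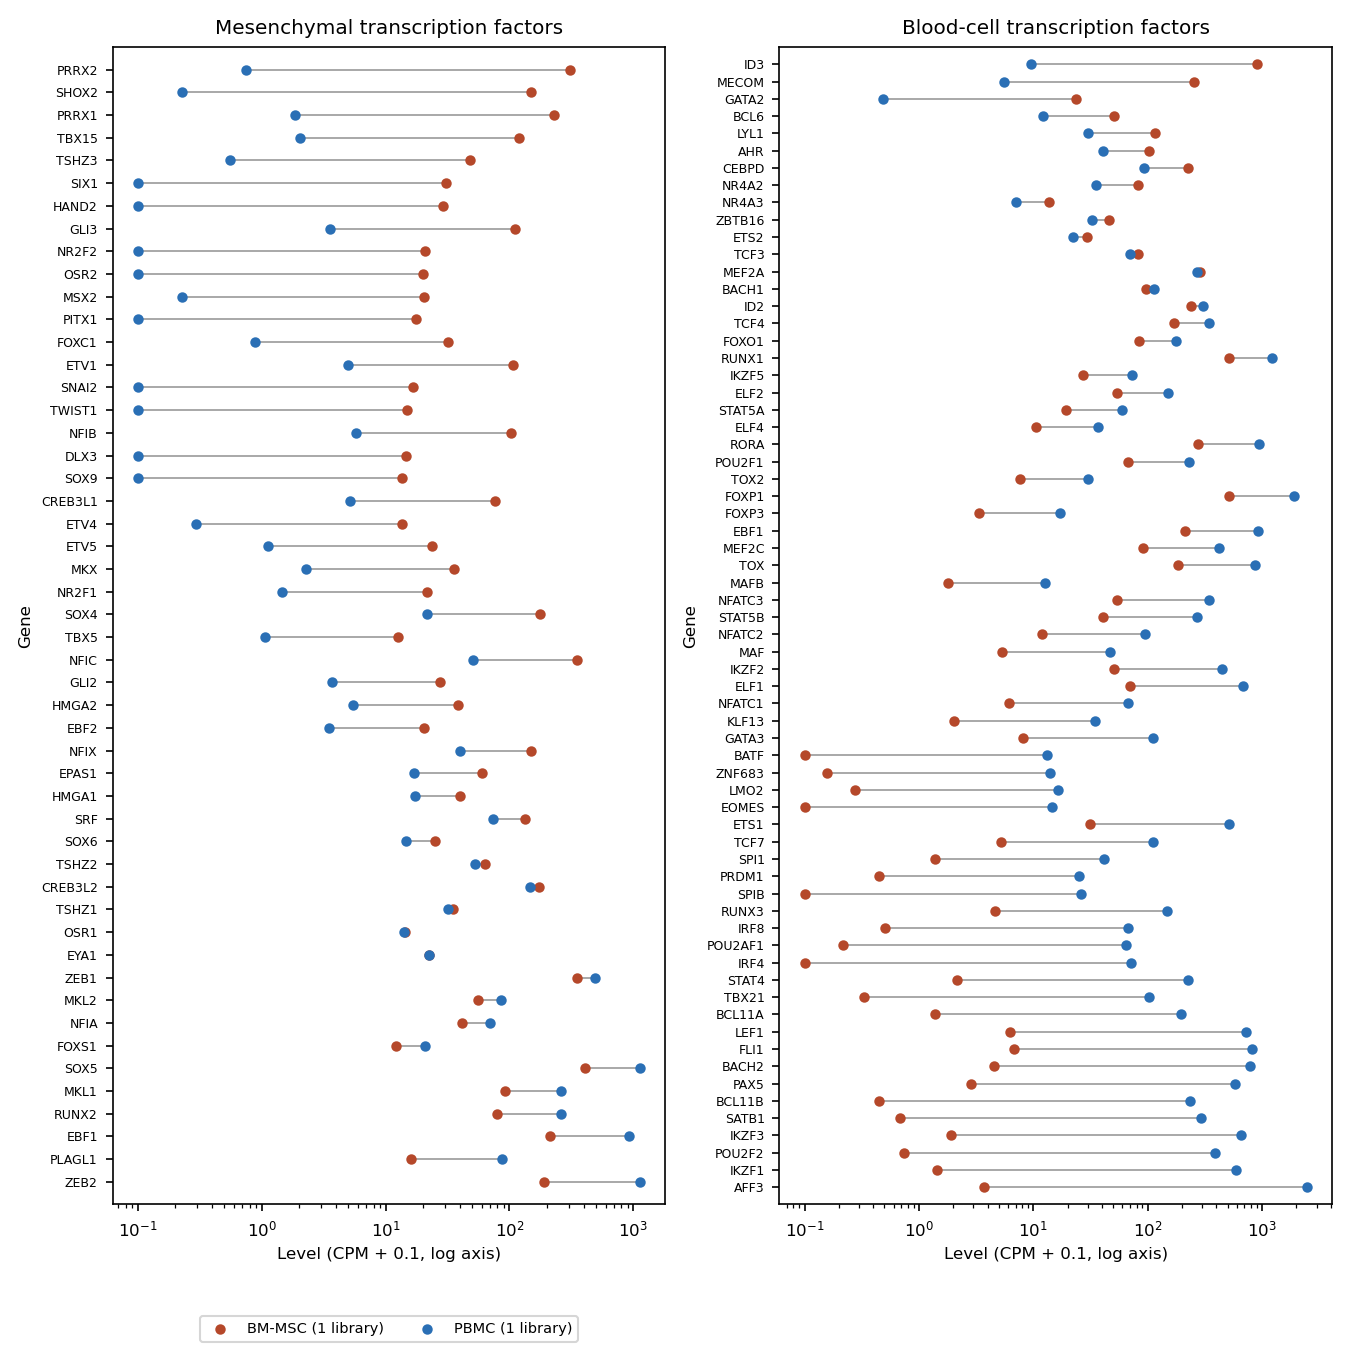
Levels of the transcription factors of the mesenchymal list (left) and the blood-cell list (right) that reached the floor, as CPM + 0.1 on a log axis, with the BM-MSC and PBMC values of each gene joined by a line and genes ordered by ratio. In the left panel 30 of 50 genes were higher in BM-MSC by the 4-fold rule and in the right panel 40 of 66 were higher in PBMC.

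Of the genes of amino acid synthesis and transfer RNA charging, 11 of 55 passed on the BM-MSC side and 1 on that of PBMC, and the others were within the rule. Of the 55, 16 reached the floor through BM-MSC alone. Over the 39 at the floor in both, 2 (5.13%) passed on the BM-MSC side, beside 4.89% of all such genes. PHGDH, PSAT1 and PSPH, the enzymes of serine synthesis from glycolysis, stood at 60.1 against 1.36 CPM, 399 against 1.04 CPM and 44.1 against 1.62 CPM, and all were past the rule. PYCR1 and ALDH18A1, of proline synthesis, were 57.9-fold (43.2 to 79.6) and 3.87-fold (3.32 to 4.52) higher, the second below the rule. CHAC1, TRIB3 and ASNS, known targets of the stress factor ATF4, stood at 60.1 against 0.129 CPM, 45.5 against 1.42 CPM and 32.1 against 4.08 CPM. Of the transfer RNA synthetases, GARS passed the rule at 192 against 40.3 CPM and AARS did not, at 149 against 46.1 CPM. Secretory pathway and ER folding genes had 18 of 78 members past the rule on the BM-MSC side and 2 on the PBMC side (median 1.11; 67 reached the floor in both). COPZ2, a COPI coat subunit, stood at 170 against 0.971 CPM, CKAP4, an ER membrane protein, at 601 against 24.3 CPM, XBP1, the factor of the unfolded protein response, at 66.4 against 11.2 CPM and HSPA5, the main ER chaperone, at 595 against 204 CPM, the last within the rule.

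Lysosomal genes had 18 of 74 members past the rule on the BM-MSC side and 7 on the PBMC side. CTSL and CTSD, lysosomal proteases, stood at 113 against 0.194 CPM and 359 against 17.5 CPM, LGMN, which processes them, at 560 against 6.28 CPM, and NPC2, which exports cholesterol from the lysosome, at 317 against 16.4 CPM. ATP6V0C, a subunit of the V-ATPase that acidifies it, was within the rule at 216 against 77.7 CPM. Antioxidant and iron genes had 17 of 40 members past the rule on the BM-MSC side and 2 on the PBMC side. FTL and FTH1, the ferritin chains, stood at 6071 against 229 CPM and 2492 against 363 CPM, ratios of 26.5-fold (25.7 to 27.4) and 6.87-fold (6.68 to 7.06). The thioredoxin reductase TXNRD1 and NQO1, targets of the factor NRF2, were 12.2-fold (11 to 13.7) and 12.2-fold (8.89 to 17.1) higher. GPX1 and TXNIP went the other way, 5.83-fold (5.51 to 6.17) and 6.65-fold (5.84 to 7.58) higher in PBMC. Heat shock proteins and cochaperones passed for 12 of 67 (17.9%) on the BM-MSC side, beside 14.3% of all genes, and 1 on the PBMC side. Over the 52 at the floor in both, 1 (1.92%) passed on the BM-MSC side, beside 4.89% of all such genes. The small heat shock genes HSPB6 and HSPB8 stood at 112 against 0.453 CPM and 57.6 against 0 CPM, whereas HSPD1 and HSP90AA1 were within the rule at 86.4 against 43.8 CPM and 662 against 327 CPM.

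Nuclear-encoded subunits of the respiratory chain and ATP synthase had a median log2 ratio of 0.90, and 6 of 64 were higher in BM-MSC by the rule, against 0 in PBMC; 57 reached the floor in both. COX5B, for example, stood at 221 against 120 CPM. The 13 mitochondrially encoded genes had a median of -0.37, which turned to 0.0052 with median-of-ratios factors. COX2 was the 1 gene of these past the rule, 4.82-fold (4.76 to 4.89) higher in PBMC at 1589 against 7662 CPM. Glycolysis and pentose phosphate genes had a median of 1.08, with 3 and 3 of 32 past the rule on the BM-MSC and PBMC sides. PKM, pyruvate kinase, was 6.22-fold (6 to 6.44) higher in BM-MSC at 1406 against 226 CPM. Of the glucose transporters, SLC2A1 (overlapping ZNF691) was 37.8-fold (28.4 to 51.4) higher in BM-MSC and SLC2A3 3.6-fold (3.16 to 4.12) higher in PBMC, the latter below the rule, and PFKFB3, which speeds glycolysis, was 13-fold (11.3 to 14.9) higher in PBMC. Hypoxia-response genes passed for 9 and 5 of 34, with ADM, adrenomedullin, at 68.7 against 0.129 CPM. The oxygen-regulated factor HIF1A itself was within the rule at 65.2 against 219 CPM. Cholesterol synthesis genes such as HMGCS1 (121 against 21.7 CPM) and MSMO1 (85.9 against 6.86 CPM) were past the rule in BM-MSC. Of cholesterol and fatty acid synthesis genes, 6 of 37 (16.2%) passed there, beside 14.3% of all genes, and 2 in PBMC. With TMM factors these counts were 10 and 1 of 38.

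DNA replication and mitosis genes were higher in PBMC or within the rule: 0 of 52 passed the rule on the BM-MSC side and 21 on the PBMC side, and 40 reached the floor through PBMC alone. Of the 12 at the floor in both, 1 passed on the PBMC side, or 8.33%, beside 8.37% of all such genes. MCM2, of the replicative helicase, stood at 8.03 against 18.4 CPM, CCNB2, a mitotic cyclin, at 2.75 against 12.4 CPM, and RRM1, a subunit of ribonucleotide reductase, at 26.1 against 79.2 CPM. MCM2, CCNB2 and RRM1 were all below the rule once 1 CPM was added. TYMS, thymidylate synthase, was close to equal at 24.9 against 21.6 CPM. The cell cycle inhibitor CDKN1A was 45-fold (37.8 to 54) higher in BM-MSC at 379 against 8.42 CPM, PHLDA3 3213-fold (1376 to 9896) at 1040 against 0.324 CPM, and ZMAT3 21.4-fold (18.8 to 24.5) at 323 against 15.1 CPM. MDM2, a ubiquitin ligase, was within the rule at 119 against 83.4 CPM. CDK4 and CDK6, the partners of D-type cyclins, stood at 17.2 against 2.14 CPM and 671 against 295 CPM. Apoptosis regulators were mostly within the rule, 2 of 35 in BM-MSC and 5 in PBMC, and the survival factor MCL1 stood at 221 against 132 CPM.

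Genes of translation and protein turnover were mostly within the rule. None of the 80 ribosomal protein genes at the floor passed the rule, against 14.3% and 15.7% of all genes, and all 80 reached the floor in both libraries; their median was -0.26 and turned to 0.077 under TMM scaling. Proteasome subunits passed for 0 and 2 of 42, and translation factors for 3 and 0 of 55. Among the latter, EEF1A2, the elongation factor form known from muscle and nerve, stood at 305 against 0.129 CPM, or 2358-fold (652 to 19477) higher in BM-MSC, whereas EEF1A1 stood at 1966 against 728 CPM. Splicing factors were higher in PBMC for 7 of 92 (7.61%), below the 15.7% of all genes, and in BM-MSC for 1. Chromatin genes were higher in PBMC for 22 of 109 (20.2%) and in BM-MSC for 3. Over those at the floor in both, 15 of 91 (16.5%) were higher in PBMC, beside 8.37% of all such genes. EZH2 and DNMT3A, histone and DNA methyltransferases, were higher in PBMC by 6.23-fold (5.2 to 7.51) and 5.81-fold (5.11 to 6.63), and KDM5B, a histone demethylase, stood at 1301 against 490 CPM, 2.65-fold (2.58 to 2.72) higher in BM-MSC and below the rule.

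**Figure D5:**
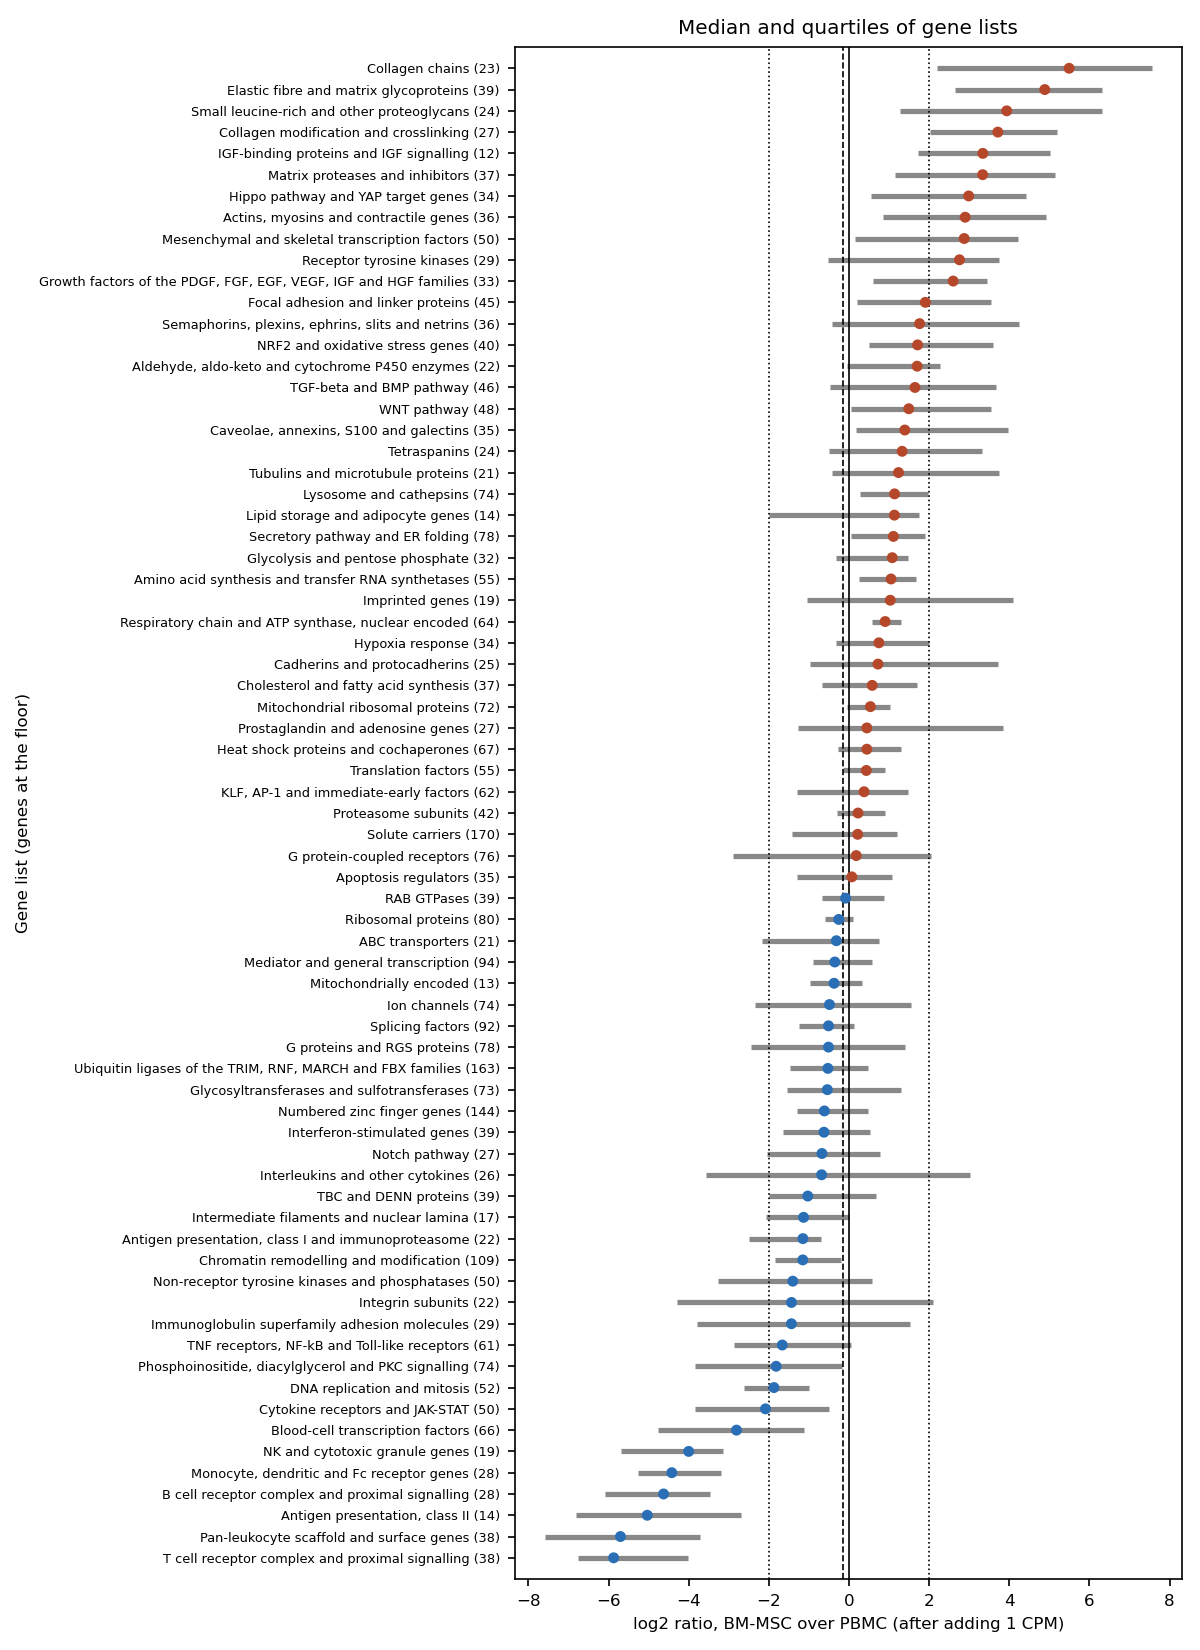
Log2 ratio of BM-MSC over PBMC in the gene lists reported here with at least 10 genes at the floor, with the median as a point (red above 0, blue below 0) and the quartiles as a bar, ordered by median. The solid line marks 0, the dashed line the median of all genes and the dotted lines the 4-fold rule. Collagen chains, with a median of 5.49, lie at one end and T cell receptor genes, at -5.87, at the other, with ribosomal proteins close to the median of all genes.

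Membrane transport and signalling families each held genes of both sides. Solute carriers had 21 of 170 members past the rule on the BM-MSC side and 26 on the PBMC side. SLC40A1, the iron exporter ferroportin, stood at 84 against 2.78 CPM and SLC39A14, a zinc and iron importer, at 67.2 against 11.8 CPM. Ion channels were 15 and 22 of 74, with GJA1, the gap junction protein connexin 43, at 270 against 0.129 CPM or 2086-fold (577 to 17232) higher in BM-MSC, and the calcium release channel RYR2 at 139 against 11.8 CPM. G protein-coupled receptors were 19 and 28 of 76; AGTR1, the angiotensin receptor, stood at 56.5 against 1.1 CPM and BDKRB2, a bradykinin receptor, at 23.8 against 0.388 CPM. In cyclic nucleotide signalling, PRKG1, the cGMP-dependent kinase of smooth muscle, stood at 424 against 75.6 CPM and PDE5A, which breaks down cGMP, at 89.5 against 7.32 CPM, while PDE4B, the cAMP phosphodiesterase of leukocytes, was 15.5-fold (14 to 17.1) higher in PBMC. Among imprinted genes, 8 of 19 were higher in BM-MSC, such as PHLDA2 at 18.2 against 0.0647 CPM and MEG3, a long non-coding RNA, at 71.7 against 0 CPM, and 3 in PBMC; of the 9 at the floor in both, 0 and 1 passed on these sides.

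Long non-coding RNA rows were called on the BM-MSC side at a share close to that of protein-coding genes and on the PBMC side at a higher one, a description without a test. Of 827 at the floor, 220 (26.6%) were higher in PBMC and 120 (14.5%) in BM-MSC, against 1554 (14.7%) and 1507 (14.3%) of 10565 protein-coding genes. Of the 3424 called genes, 832 overlap another row that holds at least 25% of their count, and the count of such a row can include its neighbour's reads. For some the values were almost the same: CRYAB stood at 3332 against 1.29 CPM and its neighbour C9H11orf1 at 3345 against 5.24 CPM, and LOC110261499 and LOC100153139 at 0.703 against 681 CPM and 0.703 against 680 CPM. Several unnamed rows with large ratios lie over a named gene with a ratio of the same sign, such as LOC110260367 (536 against 0.259 CPM) over COL11A1 (853 against 2.4 CPM) and LOC106508147 (0 against 260 CPM) over IL7R (0.0586 against 346 CPM). Others overlap no such row, such as LOC100623720 at 633 against 0.129 CPM and LOC100625479 at 395 against 0.0647 CPM, both listed as protein-coding without a name in the table used here.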

How the data were processed

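Libraries of 3′ transcript ends from pig BM-MSC and PBMC, 1 each, were made with the Lexogen QuantSeq kit from 500 ng of total RNA, per the labels' protocols. The deposited values are raw counts per gene symbol, seen from whole numbers with unequal totals, and the tools listed, per the submitters' processing notes, are Bowtie2 and bedtools, with neither a version nor a step. For the build, annotation, strand setting and reads with several matches nothing is given in the sources used here, so overlapping genes and near-identical copies can share reads. RefSeq (Sscrofa11.1) was used only for biotypes and for which genes overlap, and a gene overlapping a row with at least 25% of its count is named with that row.

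Rows of the same symbol (81 symbols over 26965 rows) were summed and scaled to CPM of the library total. Ratios were log2 after adding 1 CPM, with a floor of 10 CPM in the higher library and a 4-fold rule, checked on simulated counts. Folds are CPM ratios with exact conditional (Clopper-Pearson) 95% intervals, and 0 counts were set to 3 per library for a lower bound. The reads are not counted as molecules, so intervals cover counting error only. No test across samples was run, with 1 library a side.

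The comparison, the 81 gene lists and the 51 pairs were chosen with earlier results of these data known, and lists were corrected by name where a pattern took genes of another family. The naming rule took the 25 largest ratios a side, of each list up to 8 largest ratios a side, the 4 highest levels a library and the 3 smallest ratios, all members of lists of up to 15, pairs, markers, the 20 highest levels a library, and unnamed rows among the 15 largest ratios. It took 1447 genes, of which those printed were picked by function with their values in view. Of the 395 genes followed by name under the alternatives, 57 lie outside it and were chosen after their values were seen. Some cell type markers, pair members and rows of highest level printed, all inside it, are not among the 395. Alternatives were TMM (edgeR 4.0.16 in R 4.3.3) and median-of-ratios factors, a total without ribosomal RNA and mitochondrial rows, a pseudocount of 5 CPM, no floor, a floor of 50 CPM and leaving out overlapping genes, and 2 more were added after seeing the data. Promoter motifs and protein identities, also planned, were not analysed here. Some genes and 4 of the lists are not reported here. Python 3.11.15, pandas 2.3.3 and scipy 1.17.1 were used.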

Additional observations from a re-analysis of the deposited data

How the results depend on the processing

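With a floor of 50 CPM the counts fell to 856 genes higher in BM-MSC and 1056 in PBMC, and with only genes at the floor in both libraries, an alternative chosen after seeing the data, to 355 and 608; fewer genes enter under both. The share of calls on the BM-MSC side was 47.6% on the library total, 58.5% with TMM factors and 60.2% with median-of-ratios factors (2028 and 1339 genes), under which the median log2 ratio over all genes went from -0.16 to 0.22 and 0.28. It was 52.5% when 3 unnamed rows close in level to ribosomal RNA were also left out of the total, likewise added after seeing the data. Of the 3424 calls, 3021 were also made with TMM factors, and median-of-ratios factors made 2969. The list medians of 75 of 81 lists kept their sign under the 4 scalings. The others were those of ribosomal proteins, RAB GTPases, ABC transporters, mitochondrially encoded genes, Mediator genes and G protein-coupled receptors. The median of natural killer and cytotoxic granule genes, -4.0, turned to 0.093 at the floor in both libraries, where 2 genes were left. Floors and overlaps changed the sign of 14 list medians, among them integrins (-1.44 to 1.34) and imprinted genes (1.03 to -0.32) at the floor in both libraries, and interleukins (-0.68 to 0.79) and G protein-coupled receptors (0.18 to -2.08) with a floor of 50 CPM. No named gene past the rule changed sign under any alternative run. A pseudocount of 5 CPM took 19 of 307 named genes under 4-fold, among them TWIST1, IL11, KIT and PRF1, and median-of-ratios factors took FYN beside the 5 lost with TMM; PRF1 and S100A8 fell under the floor with both, and both brought ACKR3 past the rule. No paired analysis was possible because each population has 1 library, and for the same reason none could be left out. At this depth a gene with 0 counts may stand at up to 0.176 CPM in BM-MSC or 0.194 CPM in PBMC.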

Other observations

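Other gene groups were also split by member between BM-MSC and PBMC, as values of 1 library each with no test. Among annexins, S100 proteins, galectins and caveolar genes 17 of 35 passed the rule on the BM-MSC side and 4 on the PBMC side. LGALS3, galectin 3, stood at 226 against 2.91 CPM and S100A16, a calcium-binding protein, at 55.4 against 0.0647 CPM, whereas S100A8 and S100A12, calcium-binding proteins of myeloid cells, were higher in PBMC by at least 58.6-fold and 108-fold (29.4 to 896); S100A8 fell under the floor with TMM factors, which ended its call. Of the microtubule genes, MAP1A, which binds microtubules and is best known from neurons, was 162-fold (113 to 240) higher in BM-MSC at 315 against 1.94 CPM, and TUBA4A, an alpha-tubulin of blood cells and platelets, 22.7-fold (15.4 to 34.7) higher in PBMC at 1.58 against 35.9 CPM. Monocyte, dendritic and Fc receptor genes were higher in PBMC for 24 of 28, with FCN1, ficolin of monocytes, at 0 against 194 CPM and the lysozyme gene LYZ at 0.644 against 95.5 CPM. CCR7, the receptor that guides lymphocytes to lymph nodes, stood at 0 against 125 CPM, whereas ACKR3, a scavenging receptor for CXCL12, was 3.6-fold (2.97 to 4.39) higher in BM-MSC, below the rule but past it with TMM factors.

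Enzymes that add sugars and sulfate were called on both sides, 11 of 73 in BM-MSC and 15 in PBMC. CHPF and CHSY3, which polymerise chondroitin, stood at 49.7 against 2.65 CPM and 224 against 3.95 CPM, and ST6GAL1 and ST8SIA4, which add sialic acid, at 21 against 312 CPM and 6.21 against 160 CPM. In eicosanoid metabolism PTGS2 (overlapping PLA2G4A), cyclooxygenase 2, stood at 70 against 0.647 CPM and PTGES, prostaglandin E synthase, at 52.8 against 0.259 CPM, while ALOX5AP, which activates 5-lipoxygenase, was 12.2-fold (9.57 to 15.7) higher in PBMC. The haem oxygenase HMOX1 was 103-fold (81.4 to 132) higher in BM-MSC at 472 against 4.6 CPM. ALDH1A1 and ALDH1A3, which make retinoic acid, stood at 26.3 against 0.842 CPM and 17.2 against 0.777 CPM. Of 39 genes of the TBC and DENN families, which regulate RAB GTPases, 10 passed the rule on the PBMC side and 1 on the BM-MSC side, whereas the RAB genes themselves passed for 4 and 3 of 39, with a median of -0.09 that turned to 0.24 under TMM scaling. Mitochondrial ribosomal proteins passed for 2 of 72 in BM-MSC and 0 in PBMC. Numbered zinc finger genes passed for 16 and 13 of 144, with ZNF521, a cofactor of stem and stromal cells, at 98 against 5.37 CPM and ZNF831 at 0.117 against 86.4 CPM.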
